A study of Homo sapiens with 4 samples.

Results

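The genes described here are 9 Krüppel-like factors, *KLF2*, *KLF3*, *KLF4*, *KLF5*, *KLF6*, *KLF9*, *KLF11*, *KLF13* and *KLF16*, together with *CITED2*, compared by RNAseq between FLO-1LM and FLO-1 parental cells. They were picked by gene symbol, with the differences between the lines already known, and are 10 of the 63677 Ensembl genes in the count files. All 10 had enough counts to enter the fit, in which 17143 genes were tested. FLO-1 parental is an established line of human esophageal adenocarcinoma, and FLO-1LM was grown out of a liver deposit after these cells had been passaged serially in immunodeficient NSG mice. It is a single derived line. Each line was represented by 2 libraries, from cells harvested at 80% confluency 24 hr after the medium was renewed, with no drug or gene targeting in either line. Whether the paired libraries of a line were grown as separate cultures is not stated, so the errors and p-values measure the spread between these libraries, which may be technical only.

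Krüppel-like factors are transcription factors that bind CACCC and GC-rich sequence in promoters through zinc fingers at their C-terminus. They differ in the rest of the protein, which recruits coactivators or corepressors, and they govern the balance of proliferation and differentiation in epithelia of the gut and skin. CITED2 has no DNA-binding domain of its own. It binds the coactivators p300 and CBP, competes there with the hypoxia factor HIF-1α, and serves as a coactivator of AP-2 factors.

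Expression of *KLF2*, *KLF4* and *CITED2* was lower in FLO-1LM, at 0.656, 0.690 and 0.742 times the parental level (edgeR, n = 2 libraries per line). These 3 of 10 members passed the cut-off of 0.05 on the p-value adjusted over all tested genes (quasi-likelihood test of edgeR), where 2.23% of all tested genes were called, 1.83% as lower. No member was called higher (0 of 10 by edgeR, DESeq2 and limma voom), against 0.402% of tested genes by edgeR. At an unadjusted p below 0.05 from edgeR, 6 of the 10 members were lower and 0 higher. Over all 17143 tested genes, 1213 were lower and 906 higher at that level. Since this contrast was known when the genes were picked, their fold changes and calls are a description of these libraries and not a test of the family. The remaining 7 members did not pass the cut-off.

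The upstream sequences of the 3 called members are shown because each was called lower in FLO-1LM, and whether they share a control was not tested. The RefSeq promoter table (GRCh38.p14) held 9 of the 10 members, all but *KLF3*, and the 250 bases before each start are used here. Capitals mark the GC box GGGCGG on either strand, a sequence bound by SP and KLF proteins. The regions are chr19:16324576-16324825 on the forward strand for *KLF2*, chr9:107489770-107490019 on the reverse strand for *KLF4*, and chr6:139374649-139374898 on the reverse strand for *CITED2*.
KLF2: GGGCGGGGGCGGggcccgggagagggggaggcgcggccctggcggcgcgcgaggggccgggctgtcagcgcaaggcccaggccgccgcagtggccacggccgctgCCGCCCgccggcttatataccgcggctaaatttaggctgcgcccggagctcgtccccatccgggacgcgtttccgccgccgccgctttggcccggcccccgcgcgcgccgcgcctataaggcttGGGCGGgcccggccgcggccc
KLF4: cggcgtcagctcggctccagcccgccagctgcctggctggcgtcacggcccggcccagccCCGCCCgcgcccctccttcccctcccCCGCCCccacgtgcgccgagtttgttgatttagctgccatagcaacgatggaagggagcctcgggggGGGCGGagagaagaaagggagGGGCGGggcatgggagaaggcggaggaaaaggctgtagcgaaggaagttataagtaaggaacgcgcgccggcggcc
CITED2: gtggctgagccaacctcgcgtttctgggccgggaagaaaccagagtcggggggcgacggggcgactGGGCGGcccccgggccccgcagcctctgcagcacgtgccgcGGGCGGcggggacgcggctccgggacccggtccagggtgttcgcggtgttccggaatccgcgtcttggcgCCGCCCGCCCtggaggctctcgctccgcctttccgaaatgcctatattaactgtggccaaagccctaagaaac

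Each of these upstream sequences held 4 matches to GGGCGG. Among the other members there were 7 in *KLF16*, 3 in *KLF13*, 2 in *KLF6*, 2 in *KLF11* and 0 in *KLF5* and *KLF9*, so the match did not set the called genes apart. GGGCGG was present in 42.3% of the 27303 upstream sequences of this length in the table. CACCC, on either strand, was found in 3 of the 9 members (*KLF5*, *KLF13* and *CITED2*) and in 53.7% of all. A match to the MEF2 consensus on either strand was found in *KLF2* alone among the members, CTAAATTTAG from 120 to 111 bases before the start, and in 2.9% of all upstream sequences. MEF2 factors drive *KLF2* in endothelium downstream of the kinase ERK5. In *KLF13* a match of CACCC overlapped a match of GGGCGG, and no other overlap between these motifs was seen. The median GC content was 72.4% over the 9 members and 58.0% over all upstream sequences. *KLF5* (40.8%) and *KLF9* (32.4%) lay well under the other members at the start the table gives, which was not checked against the transcripts of these cells.

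Total counts ran from 19060310 to 25920336 per library, and scaling factors by edgeR's TMM method from 0.985 to 1.01. Levels are given as CPM, on a scale of equal size per library. Counts were divided by the product of this factor and the library's total over the tested genes. Of the epithelial markers, *KRT8*, *KRT18*, *KRT19* and *CDH1* were expressed in both lines, while *EPCAM* had 3 to 12 counts per library. All 4 that could be tested were called lower in FLO-1LM (of 5 listed), as with *KRT8* at a mean of 273.0 CPM against 443.5, and their part in the values below was not tested. Of 5 endothelial markers 0 could be tested, of 5 immune markers 1 and of 5 fibroblast markers 2, and 0 of these were called. The endothelial marker *PECAM1* was not matched to a gene by its symbol, so its counts were not read. *KDR*, *PTPRC*, *COL3A1* and *DCN* had 0 counts in every library. In bulk libraries, fewer cells expressing a gene and less RNA per cell cannot be told apart. No date or batch is given, so a batch that followed the line cannot be told apart from the line.

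*KLF2*, on chromosome 19 of GRCh37 (16435637 to 16439496, forward strand), is best known for quiescence of endothelial cells and T lymphocytes. It had 743 and 885 counts in the FLO-1LM libraries and 1064 and 1055 in the parental libraries. In CPM these were 33.3 and 34.4 against 48.3 and 55.0, so that the lines did not overlap and the gap exceeded the spread within either line. Mean levels were 33.9 ± 0.73 CPM in FLO-1LM and 51.6 ± 4.8 in parental cells (SD, n = 2 each), and the fitted log2 fold change was −0.61 with SE 0.104. This was the largest fall of the 10 members, and 6.99% of tested genes had a lower log2 fold change.

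*KLF4*, on chromosome 9 (110247133 to 110252763, reverse strand), promotes cell cycle exit and differentiation in the surface epithelium of the gut. The files gave it 830 and 830 counts in FLO-1LM and 1133 and 943 in parental cells. Its CPM were 37.3 and 32.2 in FLO-1LM, both below the parental values of 51.4 and 49.2. The FLO-1LM mean was 34.7 ± 3.5 CPM and the parental mean 50.3 ± 1.6 (SD, n = 2 each). On the log2 scale the fitted difference was −0.54, with SE 0.105. The equal raw counts in FLO-1LM came from libraries of different size, and after scaling replicate 2 was the lower one.

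*CITED2*, on chromosome 6 (139692944 to 139695785, reverse strand), had the highest level per length of the members. Counts were 1985 and 2147 in FLO-1LM and 2458 and 2318 in parental cells, or 89.1 and 83.4 CPM against 111.5 and 120.9. The parental libraries were both above the FLO-1LM libraries, and the fitted log2 difference was −0.43 with SE 0.0831, from means of 86.2 ± 4.0 and 116.2 ± 6.6 CPM (SD, n = 2 each).

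**Figure D1:**
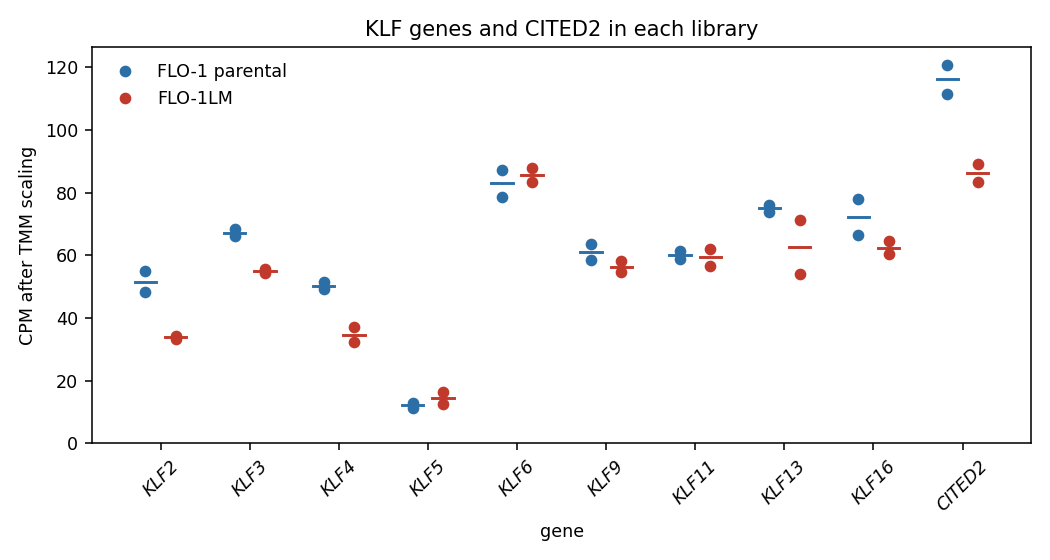
Level of each member in CPM after TMM scaling (vertical axis, from 0), with 1 point per library and a short line at the mean of each line's 2 libraries. For KLF2, KLF4 and CITED2 both FLO-1LM points lie under both parental points, and for KLF13 the FLO-1LM points are far apart, at 54.0 and 71.2 CPM.

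The closest relatives of *KLF2* and *KLF4* in the list are *KLF5* and *KLF6*, which also act mainly as activators. *KLF5*, a proliferation factor of intestinal crypts that is recurrently amplified in gastro-esophageal adenocarcinoma, was the least abundant member per length. It had 16.4 and 12.7 CPM in FLO-1LM and 13.02 and 11.3 in parental cells. The lines overlapped, with a log2 fold change of 0.25 (95% interval −0.11 to 0.62). It was 0.063 without FLO-1LM replicate 1, 0.43 without FLO-1LM replicate 2 and 0.16 without parental replicate 2. *KLF6*, a growth suppressor with many splice forms, was near even, at 83.4 and 87.9 CPM in FLO-1LM and 87.2 and 78.7 in parental cells. Its log2 fold change was 0.05 (95% interval −0.14 to 0.23), an interval that does not reach the fold changes of *KLF2* or *KLF4*. The fitted differences between these relatives were themselves not tested.

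*KLF3* is a repressor that recruits the corepressor CtBP. Its CPM were 54.4 and 55.8 in FLO-1LM and 68.4 and 66.2 in parental cells, with no overlap between lines and little spread within them. The log2 fold change was −0.29 (SE 0.0891, 95% interval −0.48 to −0.10), which did not pass the cut-off after adjustment over all genes. Of the members outside the called genes it was the lowest by fold change. The next genes of the list share a different corepressor.

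*KLF9*, *KLF11*, *KLF13* and *KLF16* belong to the branch that binds the SIN3A corepressor. None of them passed the cut-off. *KLF9*, a glucocorticoid and thyroid hormone response gene, had 58.1 and 54.6 CPM in FLO-1LM and 63.6 and 58.5 in parental cells, a log2 fold change of −0.12 (95% interval −0.31 to 0.08). *KLF11*, induced by TGF-β in pancreatic and other epithelia, had 56.7 and 62.1 against 61.4 and 58.9 CPM. This was the most even of the 10, at −0.02 (95% interval −0.21 to 0.18). *KLF13*, first studied as a regulator of the chemokine gene *CCL5* in T cells, had 54.0 and 71.2 CPM in FLO-1LM and 76.2 and 73.9 in parental cells. FLO-1LM replicate 1 stood well under replicate 2, and the SD of 12.2 CPM was the widest of any member in either line. The log2 fold change of *KLF13* was −0.26 (95% interval −0.49 to −0.03), and it was −0.48 without FLO-1LM replicate 2 and −0.08 without replicate 1. *KLF16*, which binds the GC-rich promoters of dopamine receptor and metabolic genes, had 60.4 and 64.6 against 66.5 and 78.0 CPM, a log2 fold change of −0.21 (95% interval −0.41 to −0.01). Parental replicate 2 stood above the other libraries, and the log2 fold change of *KLF16* was −0.089 without it and −0.32 without parental replicate 1. That of *KLF9* was −0.18 without parental replicate 2, −0.053 without parental replicate 1 and −0.071 without FLO-1LM replicate 2. These intervals are for single genes and are not adjusted for the number of genes tested.

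As a set, 8 of the 10 members had a log2 fold change below 0, with a median of −0.23, beside a median of 0.0016 over all 17143 tested genes. In 7 of the 10 both FLO-1LM libraries were under both parental libraries, which held for 21.7% of all tested genes. In 0 of the 10 were both above, beside 20.9% of tested genes. With 1 library left out, the calls of *KLF2*, *KLF4* and *CITED2* did not hold in every fit. The number of calls over all tested genes shifted in these fits as well, so the change is not particular to the members. The lone library left in a line is then assumed to vary like the other pair, and the log2 fold changes of *KLF2*, *KLF4* and *CITED2* stayed within −0.70 to −0.51, −0.64 to −0.43 and −0.49 to −0.37.

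**Figure D2:**
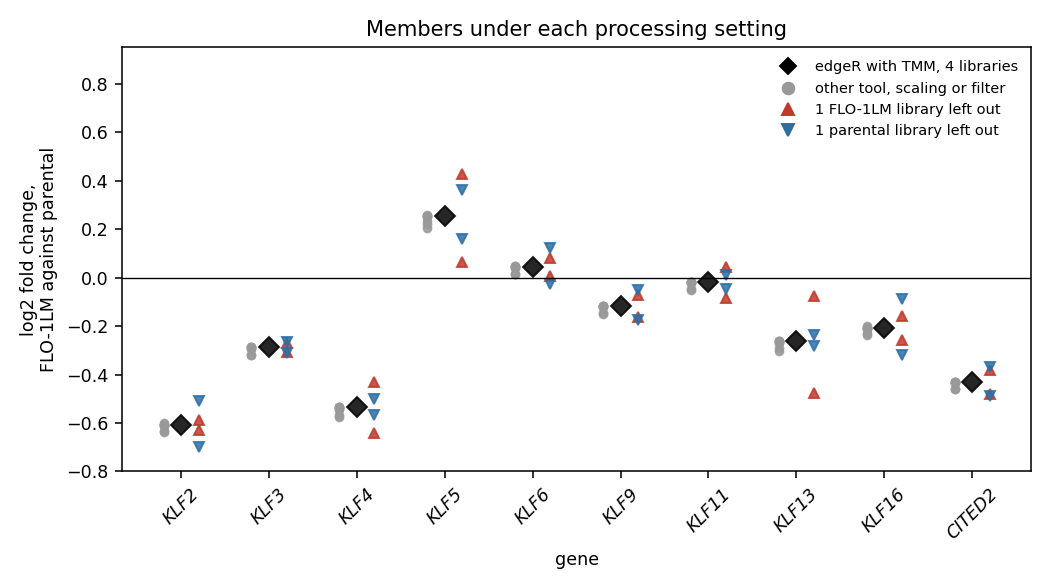
Log2 fold change of FLO-1LM against parental (vertical axis) for each member under the fit with all 4 libraries (black), 7 other choices of tool, scaling or filter (gray), and with 1 library left out (triangles). KLF2, KLF4 and CITED2 remain below 0 throughout, KLF6 and KLF11 fall on both sides of 0, and the points of KLF13 spread from −0.48 to −0.08.

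Levels of different genes can be compared only per length, as CPM per kilobase of annotated exon. By this measure *CITED2* came first, at 32.5 to 47.2 over the 4 libraries, followed by *KLF16* at 20.4 to 26.3 and *KLF2* at 11.8 to 19.5. The ranges of these did not overlap. The ranges of *KLF2*, *KLF6*, *KLF11*, *KLF4* and *KLF9*, which pool both lines, overlapped from each to the next. Their order over both lines together is therefore not set beyond their spread. *KLF3* and *KLF13* followed, also overlapping, and *KLF5* was last, at 3.08 to 4.45. The place of *KLF2* differed between the lines. It stood at rank 3 in parental cells, with a mean of 18.3 CPM per kilobase, and at rank 5 in FLO-1LM, with 12.01, under *KLF6* (13.95) and *KLF11* (12.9). By this length, *KLF2* in both parental libraries (17.1 and 19.5) was above *KLF6*, *KLF11*, *KLF4* and *KLF9* in either. In both FLO-1LM libraries (11.8 and 12.2) it was under *KLF6* and *KLF11* in either. *KLF4* stood at rank 4 in parental cells and rank 7 in FLO-1LM. The exon lengths come from a later annotation than the one counted on, and with the longest transcript as length *KLF6* ranked 3 and *KLF2* ranked 4 over all libraries.

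**Figure D3:**
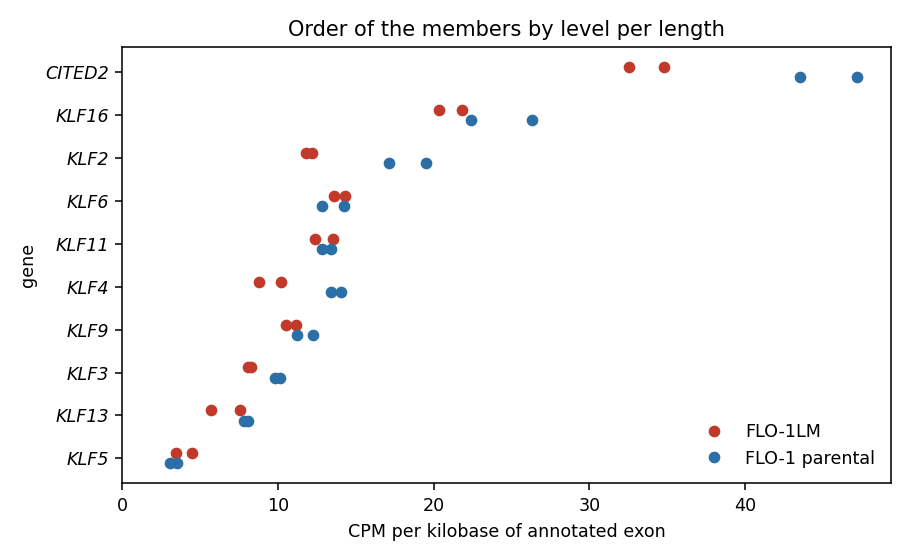
CPM per kilobase of annotated exon (horizontal axis, from 0) for each member, with 1 point per library, ordered by the mean over all 4 libraries. CITED2 lies above 32 in every library and KLF5 below 5, while the genes from KLF2 to KLF9 crowd between 8.80 and 19.5.

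Genes on the opposite strand were read for the members, since the strand setting of the counting is not stated. *KLF3-AS1*, whose exons share 265 bases with those of *KLF3*, had 3 and 10 counts in FLO-1LM and 12 and 14 in parental cells, beside 1213 to 1508 for *KLF3*. The unnamed genes opposite exons of *KLF11* and *KLF16* had at most 11 and 10 counts in any library. A long noncoding RNA annotated opposite *KLF4* shares 357 bases with its exons. It is not among the genes counted, so its reads could not be set beside those of *KLF4*. No gene on the opposite strand shares exon sequence with *KLF2*, *KLF5*, *KLF6*, *KLF9* or *CITED2* in this annotation. Processed pseudogenes can take reads of their parent gene. The 4 of *KLF2* had at most 7 counts each in any library, and that of *KLF4* had 0. These pseudogene counts were small beside those of *KLF2* and *KLF4*.

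The rest of the family was listed by name, as 19 further KLF, SP and CITED genes. Of these, 11 could be tested, and 1 was called lower (*CITED4*), beside 1.83% of all tested genes by edgeR. By edgeR, DESeq2 or limma voom 0 were called higher, beside 0.402% of tested genes by edgeR. At an unadjusted p below 0.05 from edgeR, 1 was lower (*CITED4*) and 1 higher (*KLF12*). Over all 17143 tested genes these counts were 1213 and 906. *CITED4*, a CITED protein that also binds p300 and CBP and coactivates AP-2, had 15.7 and 21.4 CPM in FLO-1LM and 39.6 and 36.1 in parental cells. Its log2 fold change was −1.02 with SE 0.139 (edgeR, adjusted p = 0.00025), a larger fall than that of any member, and it passed the cut-off without each library in turn. *CITED2* and *CITED4* were thus both lower in FLO-1LM. The third gene of this kind, *CITED1*, had 3 to 27 counts per library and could not be tested.

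The abundant SP factors, which compete with KLF proteins for GC boxes, did not pass the cut-off. *SP1* had a log2 fold change of −0.05 (95% interval −0.21 to 0.11) and *SP3* of 0.05 (95% interval −0.12 to 0.22). *SP2*, *SP4*, *SP6* and *SP9* were at −0.17, −0.01, −0.46 and −0.87, the last on 22 to 54 counts per library. Among the other KLF genes, *KLF10*, a TGF-β early response gene of the SIN3A branch, was at −0.06 (95% interval −0.28 to 0.16) and *KLF7* at 0.12 (95% interval −0.22 to 0.46). *KLF12*, a CtBP-binding repressor of the AP-2α gene, had 50 and 62 counts in FLO-1LM and 30 and 20 in parental cells, with no overlap in CPM and a log2 fold change of 0.95 with SE 0.424 (edgeR, adjusted p = 0.37). *KLF15* was at −0.35, on 21 to 24 counts. *KLF1*, *KLF8*, *KLF14*, *KLF17*, *SP5*, *SP7* and *SP8* had at most 10 counts in any library and could not be tested.

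**Figure D4:**
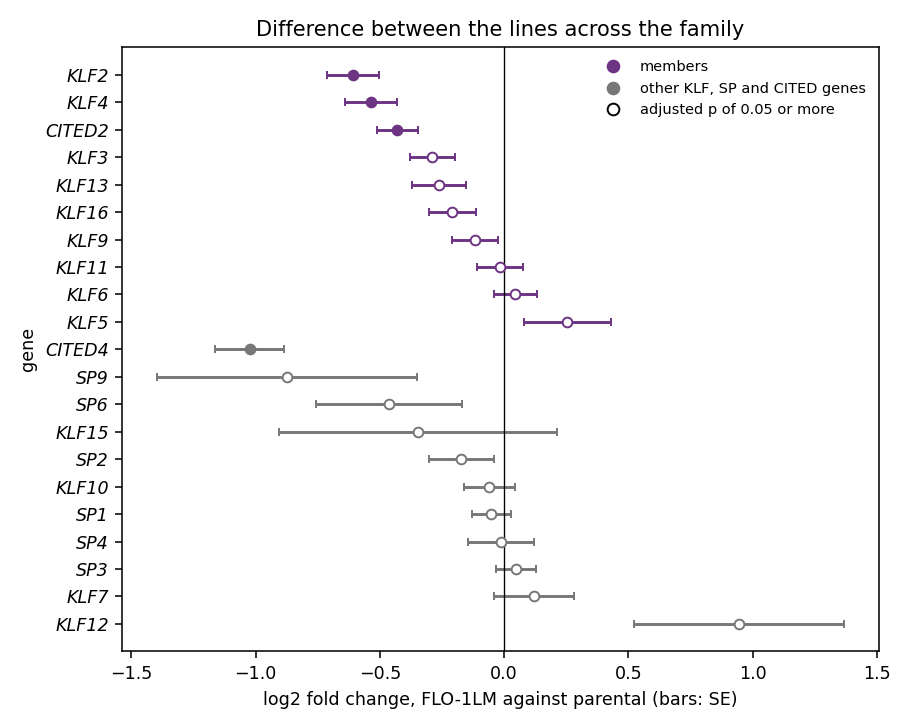
Log2 fold change of FLO-1LM against parental (horizontal axis) with its standard error for the 10 members (purple) and the 11 testable other KLF, SP and CITED genes (gray). Filled points passed the edgeR cut-off of 0.05 and are KLF2, KLF4, CITED2 and CITED4.

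Genes that work with these factors were read from lists chosen by function. Of 20 cofactors, 19 could be tested and 0 were called in either direction by edgeR, DESeq2 or limma voom (6 lower and 1 higher at an unadjusted p below 0.05), with a median log2 fold change of −0.03. For this list and those below, the unadjusted counts stand beside 1213 lower and 906 higher of all 17143 tested genes. *EP300* and *CREBBP*, which encode the p300 and CBP bound by CITED2, were at −0.21 (95% interval −0.38 to −0.04) and −0.03 (−0.22 to 0.16). *SAP30*, a subunit of the SIN3A complex, and *TFAP2C*, an AP-2 factor, had the largest differences, at −0.51 and −0.45, neither past the cut-off (adjusted p = 0.19 and 0.20 from edgeR). *HIF1A* was at 0.22, with an adjusted p of 0.35 from edgeR.

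Upstream of *KLF2* and *KLF4*, the ERK5 cascade (MEKK3, MEK5 and ERK5, encoded by *MAP3K3*, *MAP2K5* and *MAPK7*) switches on MEF2 factors, and the KRIT1 complex holds it back. The list of 14 genes upstream of *KLF2* and *KLF4* holds this route and also *FOXO1* and *SIRT1*. Of these 14, 12 could be tested and 1 was called lower. *HEG1*, the membrane receptor that anchors KRIT1, had 99.5 and 105.4 CPM in FLO-1LM and 130.0 and 128.5 in parental cells, a log2 fold change of −0.33 with SE 0.0788 (edgeR, adjusted p = 0.029). It did not pass without FLO-1 parental replicate 1 or without parental replicate 2 (adjusted p = 0.44 and 0.29 from edgeR). *MEF2D*, the next largest at −0.27, had an adjusted p of 0.20 from edgeR, and *MEF2C* had 0 counts in every library. None of the 14 was called higher by edgeR, DESeq2 or limma voom (2 lower and 0 higher at an unadjusted p below 0.05 from edgeR). Of 9 ubiquitin enzymes that act on KLF proteins, all 9 were tested and 0 were called by any of the 3 tools (0 lower and 1 higher at an unadjusted p below 0.05), the largest difference being that of *WWP1*, a ligase for KLF2 and KLF5, at 0.26 (adjusted p = 0.34 from edgeR), ahead of *VHL* at −0.15.

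Of 22 genes reported as KLF targets, 18 could be tested and 1 was called lower. This was *CDH1*, the E-cadherin gene, which KLF4 activates in breast epithelium, at 16.4 and 19.9 CPM in FLO-1LM and 85.9 and 82.6 in parental cells (log2 fold change −2.21 with SE 0.109, and edgeR adjusted p = 1.12e-09). It was in the list with its difference known. The median of the list was −0.03. Of the 18 tested, 11 were below 0 and 7 above, and an unadjusted p below 0.05 was reached by 2 lower (*CDH1* and *CDKN1A*) and 1 higher (*LGALS3*). *CDKN1A*, the p21 gene that KLF4 and KLF6 induce, was at −0.22 and *LGALS3*, the galectin-3 gene, at 0.33 (edgeR, adjusted p = 0.38 and 0.18). *VCAM1*, an adhesion molecule gene that KLF2 holds down in endothelium, was at −0.81 on 22 to 44 counts per library (edgeR, adjusted p = 0.50). For the HIF-1 targets, which CITED2 restrains in other cells, 10 of 12 could be tested and 0 were called by edgeR, DESeq2 or limma voom (2 lower and 2 higher at an unadjusted p below 0.05). Their median was −0.02, with *ALDOC* at 0.45 and *SLC2A1* at −0.39 as the largest (adjusted p = 0.18 and 0.073 from edgeR).

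*KLF2*, *KLF4* and *KLF6* are themselves quickly induced by serum and stress, and the immediate early genes were therefore read alongside. Of 15, 14 could be tested, and 1 was called lower. *EGR1*, a zinc finger factor that binds GC-rich sites, had 18.3 and 15.1 CPM in FLO-1LM and 25.9 and 25.3 in parental cells (log2 fold change −0.62 with SE 0.138, and edgeR adjusted p = 0.021). It missed the cut-off without FLO-1 parental replicate 1 (adjusted p = 0.29 from edgeR) or parental replicate 2 (adjusted p = 0.17 from edgeR). The list had a median of 0.05, and *NR4A1*, second in size, was at −0.43 (adjusted p = 0.35 from edgeR). None of the list was called higher by edgeR, DESeq2 or limma voom (2 lower and 2 higher at an unadjusted p below 0.05 from edgeR).

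**Figure D5:**
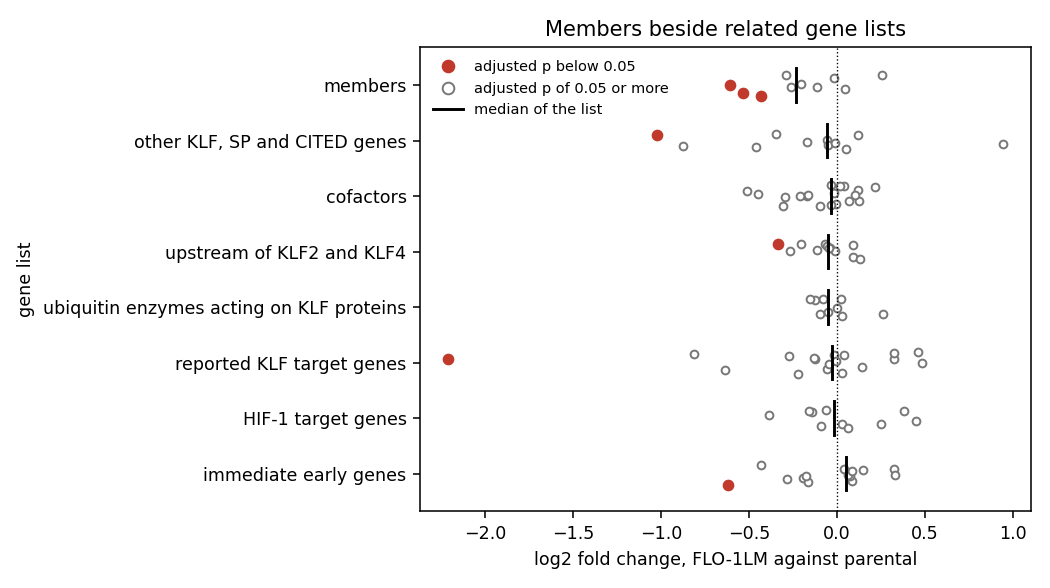
Log2 fold change of FLO-1LM against parental (horizontal axis) for the members and for 7 related gene lists, with 1 point per tested gene, jittered vertically, and a bar at the median of each list. Red points passed the edgeR cut-off of 0.05, of which 3 are members (KLF2, KLF4 and CITED2) and 4 belong to the other lists (CITED4, HEG1, CDH1 and EGR1).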

How the data were processed

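The authors extracted total RNA, built directional libraries, sequenced them on a NextSeq 500, trimmed adapters with Trimmomatic 0.30 and mapped reads to GRCh37 with Ensembl genes (versions from the submitters' processing notes). Which aligner and counter were used, and with which strand setting, is not given in the sources used here. The deposited values are raw read counts per Ensembl gene, 1 column per library, without normalization. Samples were grouped by the cell line in their labels.

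Ensembl identifiers were paired with symbols, GRCh37 positions and exon lengths from a later GENCODE annotation mapped to that build. In R 4.3.3, genes were kept by edgeR's filterByExpr (minimum count 10, minimum total 15), scaled by TMM and tested with edgeR 4.0.16 (estimateDisp, glmQLFit, glmQLFTest). Benjamini-Hochberg adjustment ran over all 17143 genes tested, with a cut-off of 0.05. SE is |log2 fold change| over the root of F, and 95% intervals use the t distribution with the fit's degrees of freedom. The study used limma voom, kept here as an alternative (limma 3.58.1), with DESeq2 1.42.0. The common biological coefficient of variation was 0.090. An exact permutation test of 2 libraries against 2 cannot go below p = 0.333. The code was tested on simulated data.

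Members and gene lists were chosen with earlier results of these data known. Named were all members, all testable KLF, SP and CITED genes, and of each other list the called genes and the 2 largest differences. A few further list genes (*EP300*, *CREBBP*, *HIF1A*, *CDKN1A*, *LGALS3*) were named after their values were seen.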

Additional observations from a re-analysis of the deposited data

How the results depend on the processing

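Alternatives were DESeq2, RLE factors, library totals only, limma voom with and without TMM factors, no low-count filter, a filter of 10 counts in each library, and each library left out. The same 3 members (*KLF2*, *KLF4* and *CITED2*) were called lower in each of the 7 alternatives that kept all libraries. With 1 library left out, 0 to 4 members were called lower. The log2 fold changes of 2 members, neither of them called, changed sign. *KLF11* ran from −0.085 to 0.045, above 0 without FLO-1LM replicate 1 (0.045) or parental replicate 1 (0.013), and *KLF6* ran from −0.026 (without parental replicate 2) to 0.12. The 6 pathway lists held 3 genes called lower and 0 higher of 82 tested, beside 1.83% and 0.402% of all tested genes. There were 5 lower with library totals only, 5 with no filter and 5 with limma voom without factors (*SLC2A1* and *SMAD3* added), and 1 higher (*MYC*) with no filter. The filter of 10 counts in each library gave 4 lower (*SMAD3* added). With 1 library left out, 1 to 11 were called lower and 0 to 2 higher. The cause was not tested. Over all genes, calls went from 382 to 577 with no filter and ranged from 116 to 1052 with 1 library left out. No paired analysis was possible because the labels give no replicate numbers. The numbers 1 and 2 used here only name the libraries of a line, and nothing ties equal numbers to a shared culture, batch or day. With 2 libraries per line the spread rests on few libraries, and genes at low counts, such as *KLF12* and *KLF15*, have wide intervals.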
